A study of Canis lupus familiaris with 6 samples.

Results

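Ribosomal protein rows that carry no gene symbol were followed in the whole blood of 6 dogs. They were chosen by 3 features of the deposited expression table: the symbol field is empty, the description names a ribosomal protein but not a mitochondrial one or a kinase, and the mean level over the 6 dogs is at least 1 FPKM. FPKM are fragments per kilobase of gene, further divided by a size set for each library. Of the 31512 rows in the table, 407 met the conditions on symbol and description, and 111 of these also met the level; they are called members below. The mean over all dogs chose the members, so their being expressed is not a result. They were also proposed for varying between dogs, so their spread is given as a description with no test.

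Ribosomal proteins form the small (40S) and large (60S) subunits of the ribosome together with ribosomal RNA, and cells need them in fixed proportions. Each is usually made from 1 gene with introns, but mammalian genomes also hold many copies of these genes that arose from spliced mRNA put back into the genome. Such retrocopies lack introns, are often annotated as pseudogenes, and can be almost identical to the mRNA of the gene they came from, so that short reads may fit more than 1 of them. In blood, lymphocytes and immature red cells are rich in ribosomal protein mRNA.

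The animals were healthy adult Beagle dogs. The control group ate a snack without supplement, and the test group ate one that held CPP-Se, in which selenium is chelated by casein phosphopeptides, phosphate-bearing peptides released from the milk protein casein. Blood was drawn on day 30 from 3 dogs in each group, and each dog gave 1 poly(A)-selected RNA library. The libraries held 6598173 to 8067034 reads on genes, as recovered from the FPKM. The library of CPP-Se dog 2 stood apart: its FPKM imply a library size 1.65 times its reads on genes (0.882 to 1.05 elsewhere), and 8 hemoglobin genes held 36.6% of its reads against 48.7% to 55.9%. In control dog 2 and CPP-Se dogs 1 and 3 the implied size was below the reads on genes, at 0.933, 0.944 and 0.882 times them. The implied size is thus no plain count of reads, and all levels divided by it carry its scaling between dogs.

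Among the 111 members, 107 had a description that names a known ribosomal protein. These stood for 54 different proteins, with 75 members of the large subunit and 32 of the small subunit. For 35 of the 54 proteins a gene of that symbol was analysed too, and for the other 19 none was. The remaining 4 members have other names. They are NHP2-like protein 1 (ENSCAFG00000001038), which binds small nucleolar RNAs, a 40S ribosomal protein S27-like row (ENSCAFG00000043616), the ribosome biogenesis factor NSA2 homolog (ENSCAFG00000008311) and a 60S ribosomal protein L7-like 1 row (ENSCAFG00000001728).

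The exon structure of the members was mixed. In 39 members the gene length equalled the span from start to end, so that they are a single block without introns. In 13 members the gaps came to under 100 bases in all, and in 59 they came to 100 bases or more, as in a gene with introns. The annotation gave the biotype protein_coding to 99 members, pseudogene to 5 and processed_pseudogene to 4, and 3 members were found by the transcript assembly alone. They lay on 32 chromosomes and 3 unplaced scaffolds, with 8 on chromosome 20 and 6 on the X. Another row overlapped 51 of them, on the same strand in 18 cases and only on the other strand in 33. As the use of strand in the counting is not stated, reads of such a member and its neighbour cannot be told apart.

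The levels of the members ranged from a mean of 1.01 to 3513 FPKM. At least 100 FPKM was reached by 25 members, 34 lay from 10 to under 100, and 52 under 10. The 10 highest held 71.0% of all reads on members, and 8 of these 10 had gaps of 100 bases or more. All members together took 1.20%, 1.07% and 0.940% of the reads on genes in control dogs 1, 2 and 3, and 0.836%, 1.02% and 1.04% in CPP-Se dogs 1, 2 and 3. Their summed FPKM was 18829, 18171 and 13983 in control dogs and 14336, 9913 and 18571 in CPP-Se dogs. The groups overlapped in both measures.

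The highest member was the row of RPS2 (ENSCAFG00000019472, chromosome 6, 38966835 to 38968488), a small subunit protein at the mRNA entry side. It had 4616, 4846 and 2927 FPKM in control dogs and 3420, 1863 and 3405 in CPP-Se dogs. The row of RPL10 (ENSCAFG00000045333, chromosome X), a large subunit protein that joins late in assembly, had 1803, 1762 and 1742 FPKM against 1334, 878 and 2123. In both rows CPP-Se dog 2 was the lowest and the groups overlapped. The 3 proteins of the stalk, the arm of the large subunit that recruits elongation factors, were all among the 10 highest. The RPLP2 row (ENSCAFG00000009523) had 1214, 1116 and 796 FPKM in control dogs and 1463, 839 and 921 in CPP-Se dogs. The RPLP1 row, found by the transcript assembly alone, had 732, 718 and 690 FPKM against 1229, 730 and 1013. The RPLP0 row (ENSCAFG00000030635) had 795, 887 and 881 FPKM against 531, 367 and 894. Values of the groups overlapped for all 3 stalk proteins.

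A single block reached the 10 highest in 1 case. It was the row described as the fusion of ubiquitin with ribosomal protein L40 (ENSCAFG00000018652, chromosome 4, 70238743 to 70239129), whose product is cut into free ubiquitin and a large subunit protein. It had 1147, 986 and 720 FPKM in control dogs and 590, 319 and 912 in CPP-Se dogs. RPS13, a small subunit protein, and RPL29, of the large subunit, were also among the 10 highest. The RPS13 row (ENSCAFG00000044478) had 883, 791 and 441 FPKM against 442, 269 and 495. The RPL29 row (ENSCAFG00000006102) had 403, 340 and 431 FPKM against 379, 332 and 644, and was highest in CPP-Se dog 3. The groups overlapped in both.

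CPP-Se dogs were compared with control dogs to ask which members differ with the supplement. The test was limma on log2(FPKM + 1) over all 9847 genes that reached the same mean level, and a gene was called where its adjusted p was under 0.05 and it differed by 1.5-fold or more. This rule called 3 genes, 0.0305% of those tested, and 1 of the 111 members. That member is a pseudogene row of RPL19, described next, and it was lower in CPP-Se dogs. It reached the mean of 1 FPKM through the control group alone, so it had to be lower in the mean of the CPP-Se dogs, and its call is no support for a change of the members. On the recovered reads, limma-voom called 0 members and 0.0102% of all genes tested, and a negative binomial model called 5 members. These 5 are 4.50% of the members, near the 4.39% of all genes that this model called, and among them are the RPL19 rows on chromosomes 1 and 21, the RPL39 row ENSCAFG00000032122 and the RPL6 row ENSCAFG00000016065. At an unadjusted p under 0.05, 12 members (10.8%) were lower and 2 (1.80%) were higher in CPP-Se dogs, against 9.1% and 6.87% of all genes tested. The groups did not overlap, with every CPP-Se dog below every control dog, in 13 members (11.7%), against 12.6% of all genes. In 3 members (2.70%) every CPP-Se dog was above every control dog, against 10.4% of all genes. These shares were not tested against each other, and the counts at an unadjusted p under 0.05 move with the setting: without CPP-Se dog 2, 7 members were higher and 11 lower, without CPP-Se dog 3, 1 was higher and 28 lower, and with FPKM set to a common sum, 5 were higher and 11 lower. Shares over all genes are not given for these other settings, so their counts are not read as a result about the members.

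The median log2 fold change was -0.14 over the members, -0.11 over 53 ribosomal protein genes with a symbol and -0.004 over all genes tested. Of the members, 73 had a fold change below 0 and 38 above 0. With FPKM set to a common sum, which moves the median of all genes up by 0.130, 56 members lay below 0 and 55 above. Relative to the median of all genes the members hardly moved, at -0.13 as reported and -0.14 with the common sum. The median of the members depends on CPP-Se dog 2, without which it was -0.02, and on CPP-Se dog 3 and control dog 3, without which it was -0.35 and -0.34. The median was -0.26 for large subunit members and -0.08 for small subunit members. By structure it was -0.32 for members in a single block, -0.45 for those with gaps under 100 bases and -0.08 for those with gaps of 100 bases or more. A mean of at least 1 FPKM was reached in the control group alone by 7 members and in the CPP-Se group alone by 3, which therefore had to differ in mean.

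**Figure D1:**
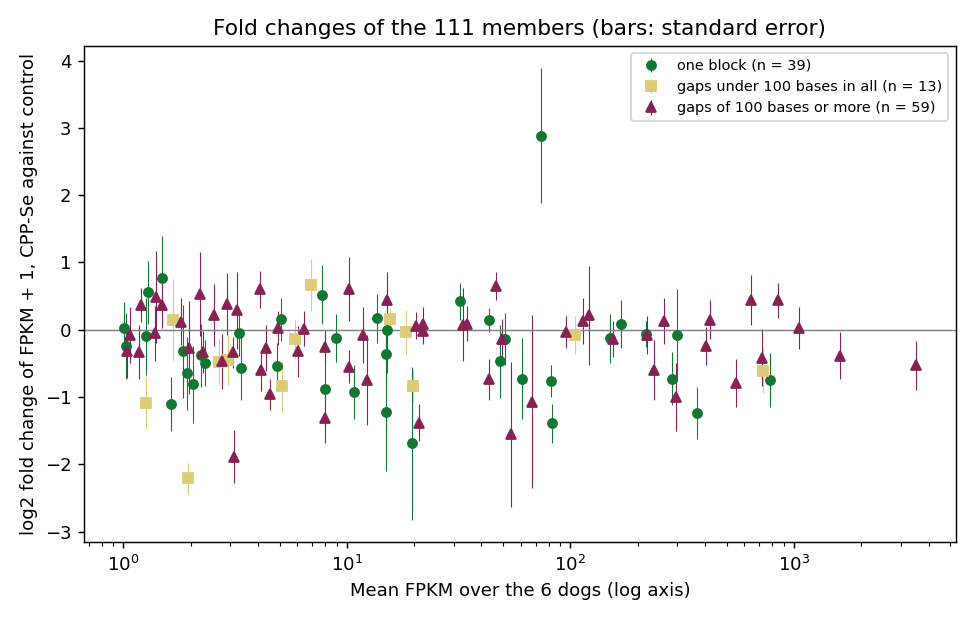
Log2 fold change of FPKM + 1 (CPP-Se against control, vertical axis) of the 111 members by their mean FPKM over the 6 dogs (horizontal log axis), with bars for the standard error, colours and shapes for the exon structure. Most members lie within 1 of the zero line at every level; the single block at 2.88 is the RPL6 row on chromosome X, and the lowest point, at -2.21, is the RPL19 row on chromosome 1.

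RPL19, a large subunit protein, had 4 members, all with the biotype pseudogene, and all were lower in every CPP-Se dog than in every control dog. The rows on chromosomes 1 and 19 reached the mean of 1 FPKM through the control group alone, so their lower mean in CPP-Se dogs was fixed by the choice of members, which leaves the rows on chromosomes 21 and X. The called one, ENSCAFG00000002237 (chromosome 1, 98050515 to 98051104), had 3.78, 4.04 and 3.67 FPKM in control dogs and 0, 0.138 and 0 in CPP-Se dogs. Its log2 fold change was -2.21 (SE 0.23, adjusted p = 0.0408 by limma), on a scale where 1 FPKM is added and low values are compressed. It rests on few reads: 14, 14 and 16 in control dogs, and 1 read in all 3 CPP-Se dogs. In RPM (reads scaled to a library size, here the one that the FPKM imply) the control dogs thus had 53.6 times the level of the CPP-Se dogs, with an exact 95% interval of 9.12 to 2163 that covers counting error only. The call was lost without any one of the control dogs, CPP-Se dog 1 or CPP-Se dog 3, and over all alternatives tried the adjusted p ran from 0.0132 to 0.391.

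ENSCAFG00000004857 (chromosome 21, 20889027 to 20889924) lies within INTS4, a subunit gene of the Integrator complex, on the same strand. It had 29.9, 30.6 and 30.7 FPKM in control dogs and 9.42, 7.98 and 17.7 in CPP-Se dogs. Its log2 fold change of -1.38 (SE 0.28) was not called (adjusted p = 0.138). ENSCAFG00000019159 (chromosome X, 119980051 to 119980775) overlaps no other row, and had 23.7, 32.6 and 20.6 FPKM against 14.4, 10.5 and 16.7 (log2 fold change -0.84, adjusted p = 0.189). ENSCAFG00000041131 (chromosome 19), inside EPB41L5 on the same strand, had 2.17, 3.48 and 0.737 FPKM against 0.694, 0.222 and 0.242. It was not called either (log2 fold change -1.09, adjusted p = 0.253).

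The gene RPL19 itself had 391, 468 and 416 FPKM in control dogs and 324, 289 and 629 in CPP-Se dogs, with overlapping groups (log2 fold change -0.12, SE 0.32, adjusted p = 0.887; 0.03 with FPKM set to a common sum). A ratio of copies to gene within a dog does not depend on the scaling between dogs. The 4 members together had 11.92, 12.01 and 10.38 reads per 100 reads on RPL19 in control dogs 1, 2 and 3. In CPP-Se dogs 1, 2 and 3 they had 6.18, 5.26 and 4.38. The groups were apart in this ratio, which was formed after the values were seen and is not tested. How reads that fit both the gene and a copy were assigned is not stated, and their part in the ratio was not tested. A further RPL19 row, under the mean of 1 FPKM (ENSCAFG00000011904, chromosome 2), had 2, 9 and 3 reads in control dogs and 0, 11 and 0 in CPP-Se dogs, so it did not separate the groups.

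**Figure D2:**
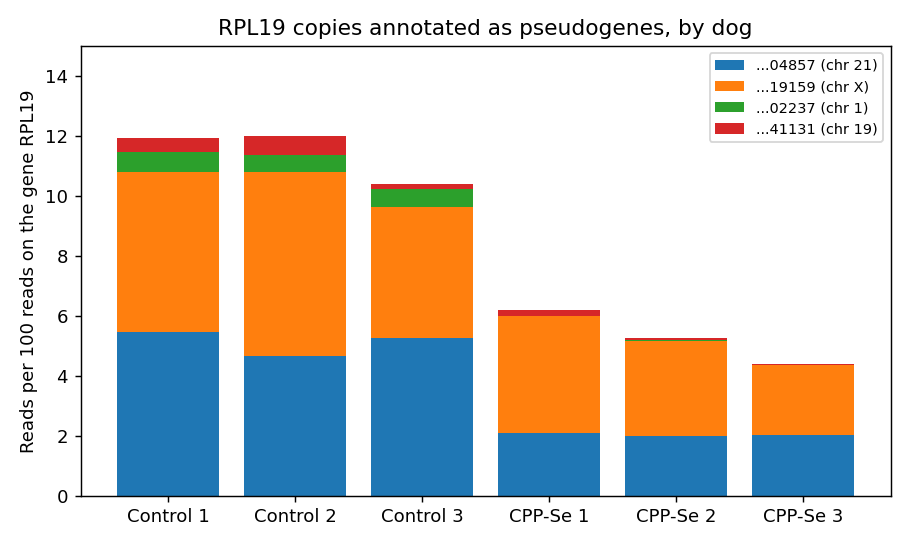
Reads on the 4 RPL19 members per 100 reads on the gene RPL19 (vertical axis, from 0), stacked by member, in each of the 6 dogs. The 3 control bars reach 11.92, 12.01 and 10.38, and the 3 CPP-Se bars reach 6.18, 5.26 and 4.38; the members on chromosomes 21 and X make up nearly all of each bar.

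RPL39, a small protein in the wall of the tunnel through which the new peptide leaves, had 4 members. The highest, ENSCAFG00000032122 (chromosome 10, 49680971 to 49681126), is a single block of 156 bases, and had 653, 595 and 300 FPKM in control dogs and 209, 141 and 302 in CPP-Se dogs. The groups met, since CPP-Se dog 3 was just above control dog 3 (log2 fold change -1.23, SE 0.39, adjusted p = 0.209). The study, which used DESeq2, lists this row among its differentially expressed genes (DEGs). Another single block of RPL39, ENSCAFG00000031092 (chromosome 35), was among the steadiest of all members, with 44.1, 41.2 and 38.3 FPKM against 48.1, 40.9 and 48.2. The gene RPL39 had fewer reads than its members in every dog but CPP-Se dog 3: there were 288, 317 and 137 reads on members per 100 on the gene in control dogs, and 151, 117 and 57.8 in CPP-Se dogs.

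RPS25, a small subunit protein used by some viral mRNAs to bind the ribosome, had 1 member that separated the groups. ENSCAFG00000006896 (chromosome 11, 71712849 to 71713713) had 15.7, 13.4 and 6.45 FPKM in control dogs and 4.63, 2.22 and 5.45 in CPP-Se dogs (log2 fold change -1.31, SE 0.37, adjusted p = 0.186). The row of RPS6, the target of S6 kinase in the small subunit, is a single block (ENSCAFG00000008776, chromosome 20). It had 111, 115 and 83.8 FPKM against 47.7, 60.5 and 74.5 (log2 fold change -0.76, adjusted p = 0.202). Lower without overlap were also rows of RPL30 (ENSCAFG00000041508, log2 fold change -1.10), RPL6 (ENSCAFG00000008873, -1.0002), RPL22 (ENSCAFG00000048022, -0.96), RPL36A (ENSCAFG00000045133, -0.93) and RPL17 (ENSCAFG00000008290, -0.55). None of these was called, with adjusted p-values between 0.157 and 0.378. The RPL30 row reached the mean of 1 FPKM through the control group alone, so its lower mean in CPP-Se dogs was fixed by the choice of members.

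The members that were higher without overlap were 3. RPL22 is a large subunit protein that T cells of the alpha-beta lineage need to develop, and its highest row, ENSCAFG00000042533 (chromosome 5, 60091345 to 60100846), has gaps of 100 bases or more. It had 40.3, 32.4 and 34.4 FPKM in control dogs and 52.1, 47.6 and 71.9 in CPP-Se dogs (log2 fold change 0.65, SE 0.21, adjusted p = 0.222). No gene with the symbol RPL22 was analysed. The L7-like 1 row had 2.81, 3.01 and 2.98 FPKM against 3.74, 3.95 and 7.99 (log2 fold change 0.60, adjusted p = 0.335). The RPL10A row (ENSCAFG00000030323) differed by little, with 13.9, 14.6 and 15.7 FPKM against 16.3, 16.5 and 16.8 (log2 fold change 0.16, adjusted p = 0.672). None of the 16 members without overlap changed direction under any alternative setting.

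For some proteins, the reads of a dog lay on different members from dog to dog. RPL6, a large subunit protein, has no gene of that symbol among those analysed, and 2 of its 9 eligible rows were members. ENSCAFG00000008873 (chromosome 26, 9970416 to 9974791) has gaps of 100 bases or more, and ENSCAFG00000016065 (chromosome X, 44508997 to 44509863) is a single block of 867 bases. The row on chromosome X had 65, 61 and 51 reads in control dogs 1, 2 and 3, and 60, 2247 and 1099 in CPP-Se dogs 1, 2 and 3. The row on chromosome 26 had 2229, 2426 and 2599 reads in control dogs and 1736, 926 and 1611 in CPP-Se dogs. CPP-Se dogs 2 and 3 stood far above the other 4 on the X and were the lowest on chromosome 26 by FPKM, at 75.8 and 287. CPP-Se dog 1 was like the control dogs on the X, yet had 296 FPKM on chromosome 26, near the value of CPP-Se dog 3.

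As a share of the reads on both RPL6 members, the row on chromosome X held 70.8% (exact 95% interval 69.2% to 72.4%) in CPP-Se dog 2 and 40.6% (38.7% to 42.4%) in CPP-Se dog 3. It held 1.92% to 3.34% in the other 4 dogs. The intervals cover counting error only. Both members together had 336, 390 and 330 RPM in control dogs and 281, 238 and 443 in CPP-Se dogs, so their sum varied 1.86-fold between dogs, whereas the row on the X alone varied 28.3-fold. The log2 fold change of that row was 2.88 (SE 1.0, adjusted p = 0.245), and it was called only without CPP-Se dog 1 (log2 fold change 4.25, adjusted p = 0.00975) and by a negative binomial model of the reads (adjusted p = 7.1e-05). The study lists the row among its DEGs. In 1 of the 3 CPP-Se dogs the row was within the range of the controls.

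RPL17, a large subunit protein beside the exit tunnel, had 5 members, and no gene of that symbol was analysed. Its reads also lay on the readthrough gene RPL17-C18orf32 (ENSCAFG00000019044, chromosome 7, 79264098 to 79268123), which joins RPL17 to its neighbour and was looked up after the values of the members were seen. The member ENSCAFG00000014751 (chromosome 14, 25825567 to 25826801) had 335, 490 and 374 reads in control dogs and 154, 3173 and 290 in CPP-Se dogs. CPP-Se dog 2 was far above the rest. The readthrough gene was the reverse in that dog, with 4099, 4269 and 3953 reads in control dogs and 1585, 116 and 3596 in CPP-Se dogs.

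Of the reads on the 5 RPL17 members and the readthrough gene together, the member on chromosome 14 held 86.3% (exact 95% interval 85.2% to 87.4%) in CPP-Se dog 2 and 6.35% to 9.48% in the other 5 dogs. Their sum was 719, 810 and 626 RPM in control dogs and 322, 276 and 746 in CPP-Se dogs. Neither row was called: the member had a log2 fold change of 0.21 and the readthrough gene one of -2.39 (SE 1.32, adjusted p = 0.424). The member on chromosome 15 (ENSCAFG00000008273, a single block) had 65.5, 64.1 and 73.5 FPKM against 42.2, 14.3 and 107, and was lowest in the same dog. The single block on chromosome 13 (ENSCAFG00000028960) varied less, with 47.5, 39.0 and 69.9 FPKM against 37.7, 31.3 and 81.6.

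**Figure D3:**
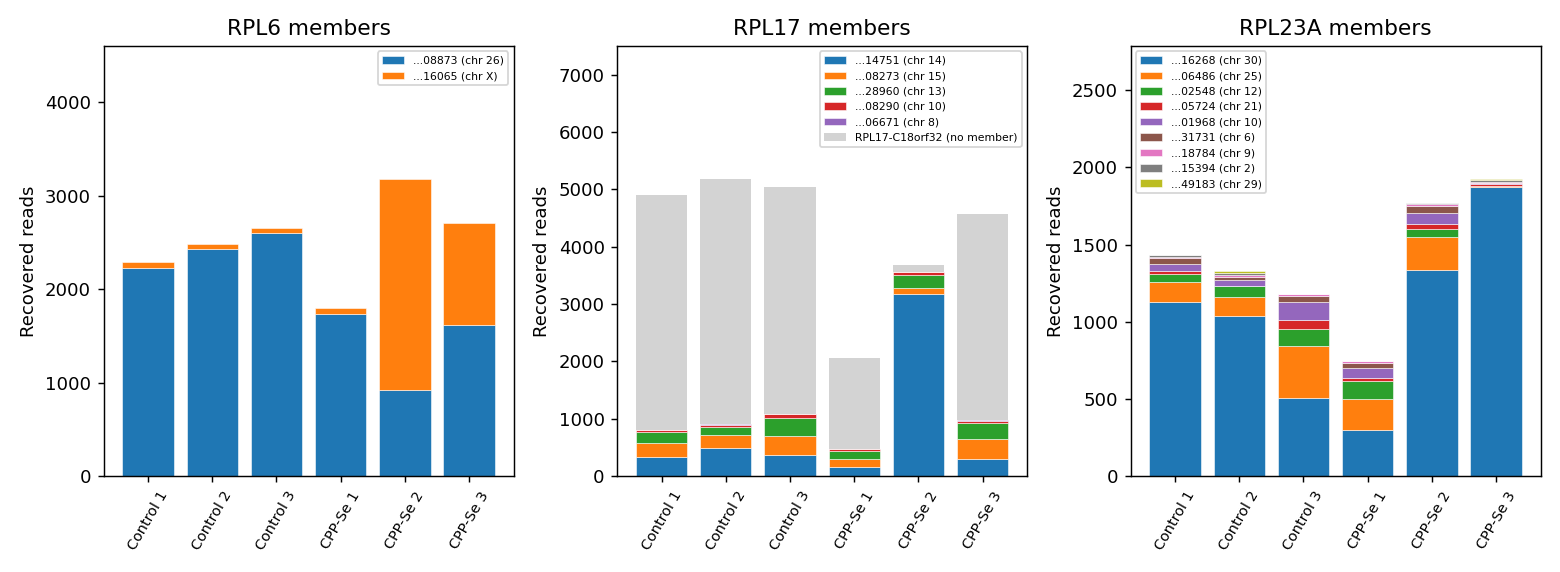
Recovered reads (vertical axes, from 0) on the members of RPL6, RPL17 and RPL23A in each dog, stacked by member, with the readthrough gene RPL17-C18orf32, no member, in grey. RPL6 reads lie mostly on chromosome 26 except in CPP-Se dogs 2 and 3, RPL17 reads mostly on the readthrough gene except in CPP-Se dog 2, and in CPP-Se dog 3 nearly all RPL23A reads lie on chromosome 30.

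RPL23A, the large subunit protein at the tunnel exit to which the signal recognition particle docks, had 9 members out of 35 eligible rows, the most of any family described here. No gene of that symbol was analysed. The highest, ENSCAFG00000016268 (chromosome 30, 22720454 to 22720924), is a single block with 351, 345 and 133 FPKM in control dogs and 99.1, 213 and 650 in CPP-Se dogs. It held 97.5% (exact 95% interval 96.7% to 98.2%) of the reads on RPL23A members in CPP-Se dog 3, and 40.03% to 78.9% in the other dogs. The share was low in 1 dog of each group, at 42.7% in control dog 3 and 40.03% in CPP-Se dog 1.

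CPP-Se dog 3 had hardly any reads on several other RPL23A members. ENSCAFG00000002548 (chromosome 12, a single block) had 52, 71 and 112 reads in control dogs and 117, 55 and 0 in CPP-Se dogs. ENSCAFG00000006486 (chromosome 25), which lies within DIS3L2, an RNA exonuclease gene, on the same strand, had 129, 120 and 336 reads against 199, 212 and 5. ENSCAFG00000001968 (chromosome 10) had 41, 37 and 119 reads against 66, 70 and 2, and ENSCAFG00000031731 (chromosome 6) had 39, 21 and 39 against 29, 49 and 3. A count of 0 in that library allows up to 3 reads. The log2 fold changes of the members on chromosomes 12, 25 and 10 were -1.69, -1.55 and -1.22, and without CPP-Se dog 3 they were -0.25, -0.14 and -0.12, so that 1 dog decides them. Adjusted p-values were 0.516 or higher in the comparison with all dogs. All RPL23A members summed varied 2.69-fold between dogs in RPM, and the member on chromosome 25 varied 51.2-fold.

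RPS27, a zinc-finger protein of the small subunit, had 1 member, ENSCAFG00000012234 (chromosome X, 35702925 to 35704006). It had 193, 175 and 30 reads in control dogs and 4, 283 and 110 in CPP-Se dogs. Control dog 3 and CPP-Se dog 1, the pair with the low shares on chromosome 30 for RPL23A, were the lowest dogs here too. The gene RPS27 was even, with 88.4, 86.5 and 77.7 FPKM against 94.4, 81.6 and 108. Of the reads on both, the member held 21.3% and 21.1% in control dogs 1 and 2, 3.90% in control dog 3, 0.556% (exact 95% interval 0.152% to 1.42%) in CPP-Se dog 1, and 18.03% and 12.3% in CPP-Se dogs 2 and 3.

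**Figure D4:**
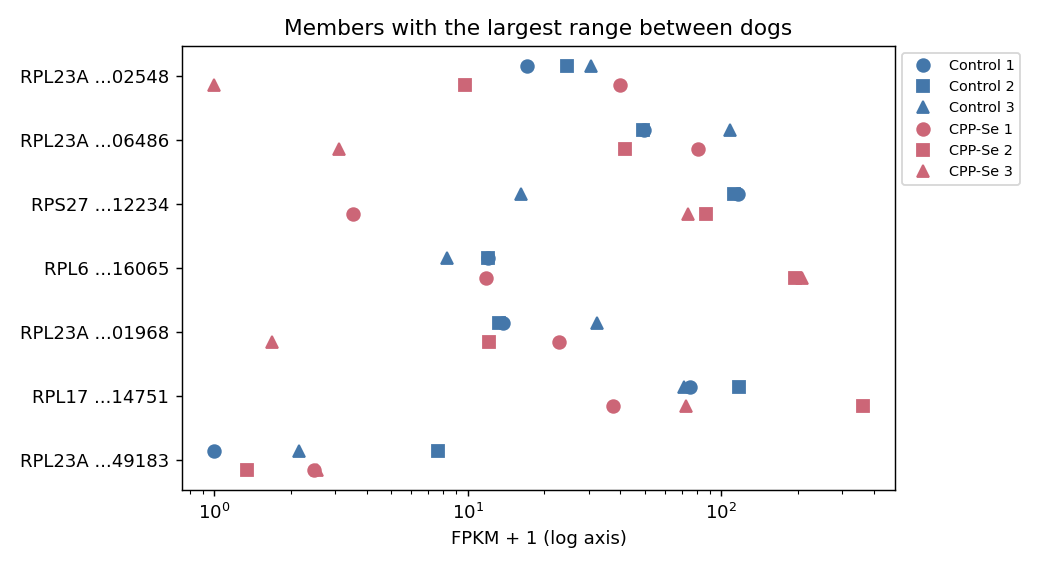
FPKM + 1 (horizontal log axis) of the 7 members with the largest range of log2(FPKM + 1) between dogs, 1 point per dog, with blue for control and red for CPP-Se and a shape for the dog number, which pairs no dogs. The low points of RPL23A on chromosomes 12, 25 and 10 belong to CPP-Se dog 3, the high points of RPL6 to CPP-Se dogs 2 and 3, and the high point of RPL17 on chromosome 14 to CPP-Se dog 2.

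Other proteins had a well covered row with gaps of 100 bases or more that was even between dogs, and a smaller row that was less so. RPL37A, a zinc-binding large subunit protein, had 1837, 1654 and 1399 reads in control dogs and 1393, 1946 and 1424 in CPP-Se dogs on ENSCAFG00000043173 (chromosome 37), a 1.84-fold range in RPM. Its second row, ENSCAFG00000009988 (chromosome 14), had 97, 100 and 69 reads against 63, 103 and 32, a 3.00-fold range (log2 fold change -0.74, adjusted p = 0.300). RPL30, also of the large subunit, had 766, 713 and 698 reads against 528, 1044 and 886 on ENSCAFG00000031952 (chromosome 13), a 1.85-fold range, and its single block on chromosome 27 (ENSCAFG00000041508) had only 3, 9 and 7 against 0, 5 and 2. RPL34 showed the opposite order: its single block on chromosome 25 (ENSCAFG00000043730) had 518, 468 and 246 reads against 419, 706 and 363 and a 2.48-fold range. The RPL34 row with gaps, ENSCAFG00000046934 (chromosome 32), had 134, 65 and 147 reads against 78, 113 and 252 and a 4.86-fold range. None of these 6 rows was called.

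The spread between dogs was wider for members than for named ribosomal protein genes, and the depth of the members was lower. The median range of log2(FPKM + 1) over the 6 dogs was 1.502 for members, 0.99 for the 53 named genes and 0.93 for all genes tested. The median depth was 48.2 reads for members and 2066 for named genes, and 29 members had under 10 mean reads. Among rows with at least 100 mean reads, the highest dog had at least 4 times the RPM of the lowest dog in 10 of 43 members (23.3%), in 0 of 51 named genes and in 232 of 4360 genes in all (5.32%). The 10 were rows of RPL6, RPL17 and RPL23A (2 each), RPS27, RPL39, RPL26 and RPL34. A single block made up 5 of them and gaps of 100 bases or more the other 5, out of 14 and 25 such members at that depth. The readthrough gene RPL17-C18orf32 falls outside the symbol rule that defines the named genes.

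**Figure D5:**
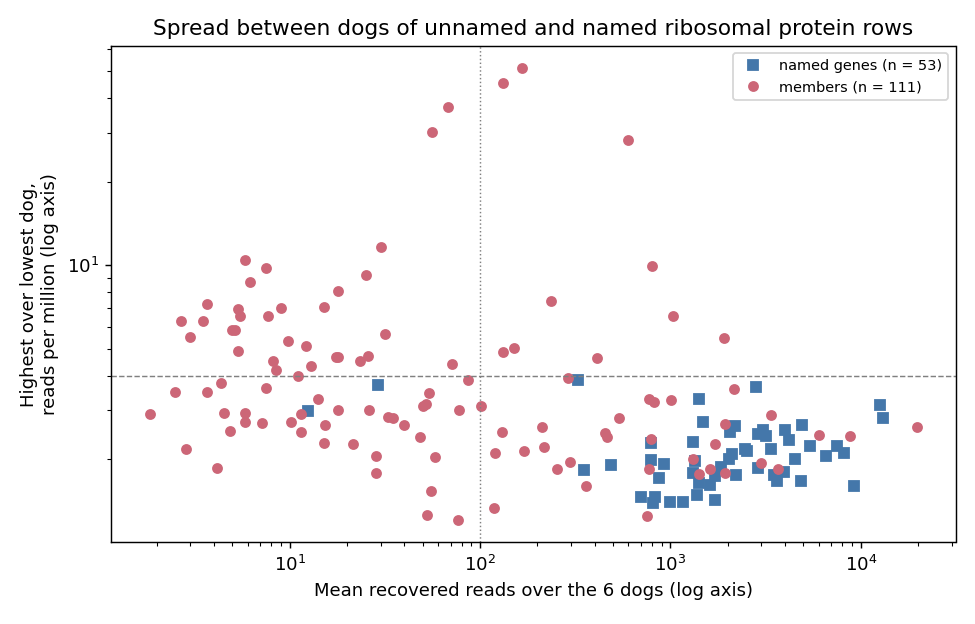
Ratio of the highest to the lowest dog in RPM (vertical log axis, with counts under 3 set to 3) against mean reads over the 6 dogs (horizontal log axis) for the 111 members and 53 named ribosomal protein genes. To the right of the dotted line at 100 reads, 10 members and no named gene lie above the dashed line at a ratio of 4.

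CPP-Se dog 2 was the lowest dog for 44 of the 111 members, and CPP-Se dog 3 was the highest for 44. The same dogs had the lowest and highest summed FPKM of the named ribosomal protein genes, which was 27826, 27946 and 22920 in control dogs and 24100, 16510 and 31863 in CPP-Se dogs. The FPKM summed over all genes was also lowest and highest in these dogs, at 303449 and 540009. As a share of reads on genes, which that scaling does not touch, the members were lowest in CPP-Se dog 1 and highest in control dog 1.

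Of the 53 named ribosomal protein genes tested, none was called by limma, by limma-voom or by the negative binomial model, and 2 had an unadjusted p under 0.05, both lower in CPP-Se dogs. Other genes whose mRNAs are begin with the same pyrimidine tract as those of ribosomal proteins, such as elongation factors, came from a list of 20, of which 15 were tested. None of these 15 was called by any of the 3 tools, 1 was lower at an unadjusted p under 0.05, and their median log2 fold change was -0.02.

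Markers of blood cell types are given beside the members, and their part in the members' values was not tested. Of the 28 markers tested, 0 were called by limma (adjusted p-values of 0.138 or higher) or by limma-voom. The negative binomial model called 4 (14.3%), against 4.39% of all genes tested. At an unadjusted p under 0.05 in limma, 3 T cell, 3 B cell, 1 cytotoxic cell and 1 red cell marker were higher in CPP-Se dogs, and 3 neutrophil and 3 monocyte markers were lower. Of all genes tested, 6.87% were higher and 9.1% lower by the same rule. The neutrophil marker MMP9 had 96.3, 68.3 and 86.1 FPKM in control dogs and 729, 23.7 and 540 in CPP-Se dogs (log2 fold change 1.35, adjusted p = 0.606). The sums of T cell, B cell, cytotoxic cell and monocyte markers did not overlap between the groups, and those of neutrophil, red cell and platelet markers did. Among single genes tested, 23.0% did not overlap, in either direction. Summed FPKM of T cell markers (5 of 6 analysed) was 49.9 to 94.9 in control dogs and 102 to 142 in CPP-Se dogs, and that of B cell markers (5 of 5) was 267 to 386 against 394 to 448. Markers of natural killer and cytotoxic cells (4 of 5) had 5.22 to 11.2 against 16.6 to 22.7. Neutrophil markers (5 of 6) had 2017 to 2742 against 1593 to 2083, and monocyte markers (3 of 4) had 84.0 to 105 against 28.1 to 63.1. Red cell markers (5 of 8) had 5969 to 13001 against 6433 to 11074, and platelet markers (2 of 5) had 489 to 1126 against 367 to 1386. No marker analysed was at 0 in every dog. In bulk blood, fewer cells of a type and less RNA per cell cannot be told apart.

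The limit of 1 FPKM fell among rows with few reads. Just inside it were rows of RPS4X (1.01 FPKM, 2 to 9 reads per dog), RPS24 (1.03 FPKM) and RPL31 (1.04 FPKM). Just outside were rows of RPS15A (0.932 FPKM), RPL6 (0.836 FPKM, 1 to 16 reads per dog) and RPL7 (0.810 FPKM). Of the 296 eligible rows under the limit, 200 had no read in any dog, 96 had at least 1, and 4 reached 10 reads in a dog.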

How the data were processed

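Whole blood RNA of 3 control and 3 CPP-Se dogs was extracted with Trizol, enriched for mRNA with oligo(dT), prepared with the NEBNext Ultra kit and sequenced as paired ends. The authors trimmed reads with fastp 0.19.7, aligned them with HISAT2 2.0.5 and assembled transcripts with StringTie 1.3.3b, using the Ensembl release 100 dog genome, to which all positions refer; featureCounts 1.5.0-p3 is named in the submitters' processing notes. The deposited values are FPKM computed by the authors. The use of strand and the handling of reads that fit several places are not given in the sources used here.

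FPKM multiplied by gene length gave whole multiples of a step in each library for at least 99.99% of genes (tolerance 0.02), which were taken as reads. Genes averaging 1 FPKM or more (9847) were tested on log2(FPKM + 1) with limma 3.58.1 in R 4.3.3 (lmFit, eBayes with a trend, two-sided, Benjamini-Hochberg over all genes tested), the count test of the study being unsuited to FPKM. P-values measure the spread between 3 dogs per group. Tables used pandas 2.3.3, numpy 2.4.6 and scipy 1.17.1 under Python 3.11.15, and figures matplotlib 3.10.9. The tests were tried on simulated data. Intervals of shares are exact (Clopper-Pearson). The ratio of the highest to the lowest dog used a floor of 3 reads.

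Members and lists were chosen with earlier results of these data known. Members named with values were those called, those among the DEGs of the study, the 10 each with the largest fold change, mean and range, those beside the limit, and rows of the same proteins; members whose groups did not overlap, the steadiest RPL39 row, the rows of RPL26, RPL30, RPL34 and RPL37A and the readthrough gene were added after their values were seen. The limit of 100 bases on gaps was also set after seeing the data. Replicate numbers do not pair dogs. Alternatives were another pseudocount, 2 other filters, 4 scalings, other variance models and weights, a replicate block, limma-voom, a negative binomial model of reads, and each dog left out. Some members that the rule covers are not reported here.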

Additional observations from a re-analysis of the deposited data

How the results depend on the processing

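All 10 members with the largest fold changes or a call kept their direction in 188 values under the alternatives, with 173 on the same side of the thresholds, 10 no longer called and 5 newly called. Members called were 1 in the comparison as reported and 0 with a pseudocount of 0.1, without a filter, with a common sum without hemoglobin genes, with the replicate block and by limma-voom. With at least 10 mean reads, 0 of the 82 members tested were called, but that filter removed the called row before the test. The negative binomial model called 5, and leaving out each dog gave 0 to 1. Over all genes, 3 were called as reported, 0 with a pseudocount of 0.1 or no filter, 1 with at least 10 mean reads, with the replicate block or by limma-voom, 12 with a common sum, 432 by the negative binomial model, and 0 to 14 with a dog left out. Members with an unadjusted p under 0.05 were 14 as reported, 22 with array weights and 11 to 29 with a dog left out, the highest without CPP-Se dog 3. The 14 are 12.6% of the members, against 16.0% of all genes tested. For the other settings the shares over all genes are not given, so their counts are not read as a result about the members. The median log2 fold change of the members ranged from -0.35 to -0.02 with a dog left out. The causes of these moves were not tested. Beside the losses given, the replicate block called no further member. Dogs with the same number did not deviate together (correlations 0.016, -0.090 and -0.043). Depth is one limit, as 29 members had under 10 mean reads, and reads shared by near-identical copies cannot be placed from these values.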

Other observations

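Among the eligible rows under the mean of 1 FPKM, 4 reached 10 reads in at least 1 dog. The RPL19 row among them is given with its family. The RPL6 row ENSCAFG00000007816 (chromosome 31) had 3, 3 and 16 reads in control dogs 1, 2 and 3, and 1, 2 and 7 in CPP-Se dogs 1, 2 and 3. The RPS27A row ENSCAFG00000046609 (chromosome X) had 6, 3 and 14 reads against 4, 9 and 4. The RPL7 row ENSCAFG00000012624 (chromosome 21) had 4, 1 and 3 reads against 2, 4 and 12. Control dog 3 was the highest for the RPL6 and RPS27A rows, and CPP-Se dog 3 for the RPL7 row.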
